A study of Mus musculus with 4 samples.

Results

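B lineage cells with little surrogate light chain RNA, the range in which small pre-B and immature B cells are sought, were examined in the tibia of the newborn mouse. A barcode counted as a member when it had at least 1000 genes, at most 10% mitochondrial UMIs (unique molecular identifiers, each standing for 1 captured transcript), at least 5 UMIs of Cd79a and fewer than 5 of Siglech. Its Vpreb1 and Igll1 UMIs together had to stay under 5 per 10000 UMIs, and Col1a1 and Col2a1 each under 50 per 10000. The rule found 365 cells among 9583 barcodes that passed the limits on genes and mitochondrial UMIs (3.81%, exact Clopper-Pearson 95% interval 3.43 to 4.21%), of 14181 barcodes in the gene matrix. The members were thus chosen by their UMIs of Cd79a, Siglech, Vpreb1, Igll1, Col1a1 and Col2a1, and the levels of these genes below are a description of that choice.

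The study followed hypertrophic chondrocytes as they become osteoblasts, and its postnatal day 6 (P6) sample, deposited as 1 matrix and treated as 1 library, was made with droplet 3' single-cell RNA sequencing. Cells were released from both tibiae of 1 male mouse and pooled, and the B lineage cells came along with the marrow. The mouse carried Col10a1Cre, Rosa26-Tdtomato, Irx3 +/Δ and Irx5 +/-, which makes it the heterozygous control for Irx3 and Irx5. No other genotype enters here. Col10a1 drives Cre in hypertrophic chondrocytes, so Irx3 deletion and the reporter are directed at that lineage, whereas the Irx5 allele is carried by every cell. Since there is 1 library of 1 mouse, cells are not replicates, no test was possible, and every interval covers counting error only.

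B cells arise in the marrow in ordered steps. Pro-B cells rearrange the heavy chain gene with the recombinases Rag1 and Rag2, and Dntt adds bases at the joints. A successful heavy chain pairs with the surrogate light chain, made of Vpreb1 or Vpreb2 and Igll1, and the resulting pre-B receptor drives a burst of division in large pre-B cells. The surrogate light chain is then switched off, the cells leave the cycle as small pre-B cells, and the kappa and then lambda light chain loci rearrange. An immature B cell carries IgM, made of the Ighm heavy chain with a kappa (Igkc) or lambda (Iglc1, Iglc2, Iglc3) chain, beside the signalling chains Cd79a and Cd79b. The tags read the constant regions, so RNA from a rearranged light chain gene and sterile RNA from an unrearranged one cannot be told apart.

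The label was checked against the cells. B lineage identity was plain: after thinning each cell to 2000 UMIs, Ighm was found in 97.4% of the cells, Igkc in 84.6%, Vpreb3 in 80.9%, Cd79b in 90.9% and Ebf1, a B lineage transcription factor, in 89.2%. Before thinning, Ighm was found in all members, Igkc in 91.5% and Vpreb3 in 92.6%. The thinned shares in chondrocytes, which should lack these genes apart from Ebf1, were 3.57% for Ighm, 1.58% for Igkc, 2.35% for Vpreb3, 2.17% for Cd79b and 12.7% for Ebf1. Pax5, the factor that holds cells in the B lineage, was found in 38.2% against 0.678%. Thinning left out 14 members with fewer than 2000 UMIs. The word small went against the data: 212 of the 365 cells (58.1%) had 20 or more UMIs per 10000 of 20 S phase and 22 G2 and M phase genes, and 180 (49.3%) had 50 or more. Only 31 cells (8.49%) lay between 15 and 25, near the limit of 20. The cells are therefore called SLC-low B cells, for their low surrogate light chain RNA, and are described as a low-cycle range and a cycling range. The 515 cells that met the same rule with 5 or more Vpreb1 and Igll1 UMIs per 10000 are called SLC-high B cells, and 416 of them (80.8%) were at 20 or more.

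**Figure D1:**
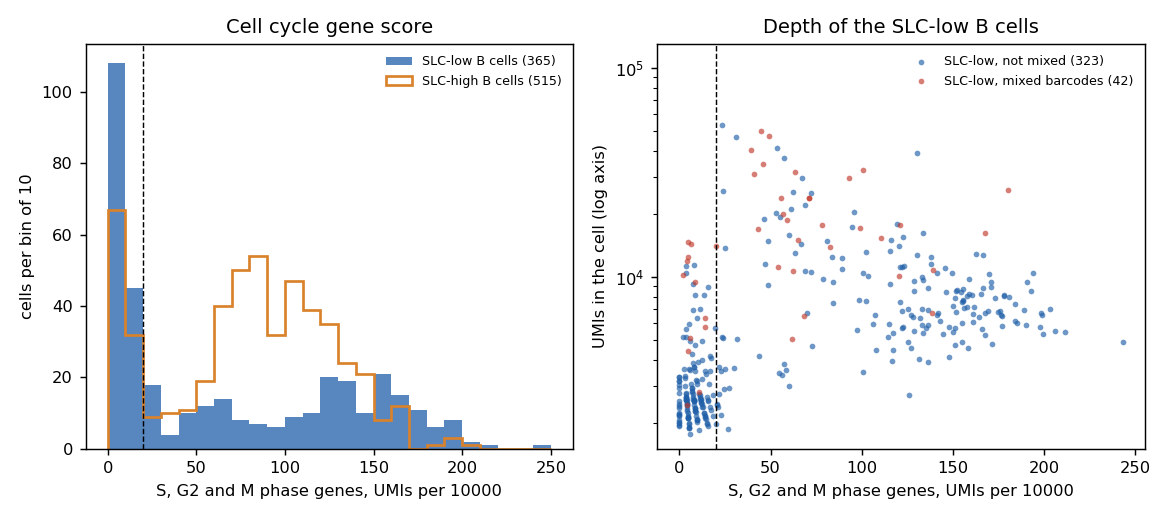
The left panel counts cells by their S, G2 and M phase UMIs per 10000 (bins of 10) in SLC-low and SLC-high B cells, with a dashed line at 20. The right panel plots the UMIs of each SLC-low B cell on a log axis against the same score, and the points left of the line are shallower (median 2578 UMIs without mixed barcodes) than those right of it (median 7065.5, highest 53208).

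Vpreb1 and Igll1 set the stage boundary used by the rule. Cd79a was demanded on both sides of this boundary, and Vpreb3, a B lineage gene, was not used by the rule. The 250 bases before the RefSeq start sites of Cd79a, Vpreb3, Vpreb1 and Igll1 are printed. Cd79a, Vpreb1 and Igll1 are in the rule itself, and no contrast is read from them. The windows are on GRCm38.p6, the assembly of mm10: Cd79a at chr7:24897247-24897496 on the plus strand, Vpreb3 at chr10:75948050-75948299 on the plus strand, Vpreb1 at chr16:16869256-16869505 on the minus strand and Igll1 at chr16:16863986-16864235 on the minus strand. Capitals mark matches on either strand to 3 motifs, the octamer ATGCAAAT, which reads ATTTGCAT on the other strand, and the E-boxes CAGGTG, which reads CACCTG there, and CAGCTG.
Cd79a: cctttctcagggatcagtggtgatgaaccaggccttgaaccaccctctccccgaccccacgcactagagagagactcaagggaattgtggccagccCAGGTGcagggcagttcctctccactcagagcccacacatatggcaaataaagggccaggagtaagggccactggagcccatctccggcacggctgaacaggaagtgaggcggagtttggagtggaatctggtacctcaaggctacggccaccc
Vpreb3: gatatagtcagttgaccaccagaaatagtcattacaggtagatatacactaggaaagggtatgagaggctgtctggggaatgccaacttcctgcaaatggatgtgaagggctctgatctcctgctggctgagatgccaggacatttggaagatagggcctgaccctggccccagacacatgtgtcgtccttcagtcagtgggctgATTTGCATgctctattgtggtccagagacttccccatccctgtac
Vpreb1: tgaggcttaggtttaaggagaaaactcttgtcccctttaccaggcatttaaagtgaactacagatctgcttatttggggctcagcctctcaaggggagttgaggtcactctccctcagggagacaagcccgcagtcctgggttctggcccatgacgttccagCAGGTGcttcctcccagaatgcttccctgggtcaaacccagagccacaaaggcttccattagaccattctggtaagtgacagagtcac
Igll1: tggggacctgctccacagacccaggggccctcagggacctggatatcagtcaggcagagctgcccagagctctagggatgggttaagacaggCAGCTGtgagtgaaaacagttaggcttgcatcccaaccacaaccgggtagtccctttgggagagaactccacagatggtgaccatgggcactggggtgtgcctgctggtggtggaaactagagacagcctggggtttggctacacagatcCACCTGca
Cd79a holds 1 CAGGTG that begins 154 bases before the start, and Vpreb1 holds 1 at 88 bases. Igll1 has a CAGCTG at 158 bases and a CACCTG at 8 bases. Vpreb3 has none of the E-boxes but carries an octamer at 45 bases. Among 32851 promoter windows of this length, 17.2% hold CAGGTG, 13.0% CAGCTG and 1.60% the octamer, so an E-box match is common. A palindrome bound by Ebf1 was searched as well, by exact match to 1 form only, which is in 0.779% of all windows and in none of these. Sites that depart from this form were not searched, so its absence does not show that these windows lack an Ebf1 site. A match describes letters only.

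The depth of the cells differed with their cycle score. SLC-low B cells held between 1774 and 53208 UMIs, with a median of 5602 and 2203 genes, and SLC-high B cells had a median of 10708 UMIs and 3183 genes. Some barcodes carried RNA of another lineage above a limit set after the data were seen. There were 42 such barcodes among the SLC-low B cells (11.5%), of which 12 had 100 or more erythroid and 15 had 100 or more neutrophil marker UMIs per 10000, and 11 had 20 or more macrophage and monocyte, 7 endothelial and 1 basophil marker UMIs. They held 25.5% of the members' UMIs with a median of 14807.5 each. The doublet caller Scrublet marked 18 of them, and 21 of all 365 members. In the SLC-high B cells 38 barcodes (7.38%) were of this kind. Without these mixed barcodes 323 SLC-low B cells remained, 141 low-cycle cells with a median of 2578 UMIs and 182 cycling cells with a median of 7065.5. The limits did not use bone or cartilage RNA, and the deepest of the 323 cells, with 53208 UMIs, held 782 Col10a1 and 691 Fn1 UMIs. The ranges of the cycle score always leave the mixed barcodes out.

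Marker RNA of the other lineages was summed over each list, per 1000000 UMIs (CPM). The 6 erythroid genes summed to 21818 CPM over all SLC-low B cells and 1037 CPM without the mixed barcodes, with Hbb-bs the most abundant, and the 8 neutrophil genes to 6944 and 517 CPM. In SLC-high B cells these lists summed to 8410 and 612 CPM and to 2830 and 197 CPM. Over all genes tested 4.76% were called higher in SLC-low B cells with the mixed barcodes and 5.19% without. With the mixed barcodes 4 of 5 erythroid and 6 of 8 neutrophil genes tested were called higher in SLC-low B cells. Without them no erythroid gene was called, but 2 of 4 neutrophil genes tested, Elane and Mpo, were still called higher. Macrophage and monocyte genes, led by Lyz2, summed to 616 and 71.5 CPM against 434 and 26.6 CPM, and the plasmacytoid dendritic cell list to 30.4 and 27.8 CPM against 39.0 and 36.6 CPM. The 8 genes of the T, NK and innate lymphoid list, led by Nkg7, summed to 38.0 and 30.2 CPM against 6.58 and 5.84 CPM, and 1 of them, Cd3e, had no UMI in any member. Endothelial genes summed to 256 and 97.4 CPM against 110 and 79.4 CPM. With the mixed barcodes Cdh5 and Emcn were called higher in SLC-low B cells, and without them no endothelial gene was called. Basophil and mast genes summed to 57.1 and 7.42 CPM against 0.299 and 0.172 CPM. Bone and cartilage RNA did not drop in this way: the osteoblast and stroma list stood at 1345 CPM with the mixed barcodes and 1330 CPM without, against 736 and 700 CPM in SLC-high B cells, and at 2293 CPM in low-cycle against 1075 CPM in cycling cells. The chondrocyte list stood at 1338 and 1519 CPM against 695 and 730 CPM, and gave 2308 CPM in the low-cycle and 1309 CPM in the cycling cells. Of 4 chondrocyte genes tested, 1 was called higher in SLC-low B cells with the mixed barcodes (Acan) and 3 without (Acan, Col9a1 and Col9a2). For osteoblast and stroma genes the calls were 2 of 4 and 1 of 3. The summed lists of other lineages were thus higher in SLC-low than in SLC-high B cells, except the plasmacytoid dendritic cell list, which was lower. The part of this RNA in the differences below was not tested.

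Heavy chain RNA was the most abundant message of the receptor genes. Ighm, at chr12:113418558-113422730, was at 2910 CPM in SLC-low and 1896 CPM in SLC-high B cells, a 1.53-fold difference that stayed under the limit of 2 used for calling a gene. Among the SLC-low B cells every cell had an Ighm UMI, and single cells ranged from 1.39 to 218 Ighm UMIs per 10000 with a median of 37.8. Cd79b, whose chain passes on the receptor signal, was at 1270 CPM against 889 CPM. Cd79a was at 1122 CPM against 1183 CPM, with 5 UMIs or more per cell demanded of both groups. Switched isotypes were nearly absent. Ighg1, Ighg2c, Ighg3 and Ighe had no UMI in SLC-low B cells, and Ighg2b was found in 14 of them against 71 SLC-high B cells, at 6.57 and 26.0 CPM.

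Kappa RNA was higher in SLC-low than in SLC-high B cells. Igkc, at chr6:70726435-70726966, was at 1799 CPM against 202 CPM in SLC-high B cells (8.91-fold, 95% interval of counting error 8.39 to 9.46). At least 1 Igkc UMI was found in 334 of 365 SLC-low B cells (91.5%) and in 29.7% of SLC-high B cells, while 3.93% of chondrocytes, at a median of 22251 UMIs, had one. In single SLC-low B cells Igkc had a median of 18.3 UMIs per 10000, with quartiles at 8.36 and 38.3 and a maximum of 145, and 31 cells had none. In the SLC-high group the median was 0, and 362 of 515 cells had none. Igkc was not used by the rule, but it lies on the same axis of stage as the surrogate light chain and no test was made of it.

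**Figure D2:**
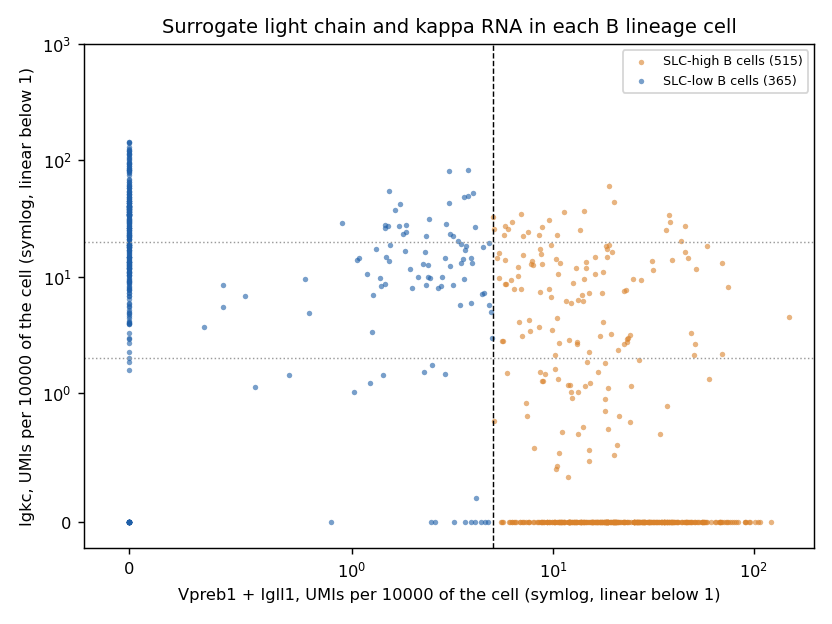
Each point is a B lineage cell, with Vpreb1 and Igll1 UMIs per 10000 on the x axis and Igkc UMIs per 10000 on the y axis (both symlog, linear below 1). The dashed line is the limit of 5 that parts SLC-low from SLC-high B cells, the dotted lines at 2 and 20 bound the kappa bands, and 271 of the 365 SLC-low B cells lie at 0 on the x axis.

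Lambda RNA was also carried by SLC-low B cells. Iglc1, at chr16:19061618-19062071, was at 253 CPM against 0.897 CPM in SLC-high B cells. Iglc2 was at 82.3 against 0.149 CPM, and Iglc3 at 86.5 against 2.09 CPM. The transcripts of Iglc2 and Iglc3 are 95.4% identical over 452 aligned bases, so how reads were split between this pair is uncertain, whereas Iglc1 and Iglc2 are 73.6% identical. At least 10 lambda UMIs were counted in 39 SLC-low B cells (10.7%) and in 0 of 515 SLC-high B cells, a zero that allows up to 0.583%. Of these 39 cells, 22 also had 10 or more Igkc UMIs and 7 had no Igkc UMI. The most lambda-rich cell without kappa held 62 lambda UMIs among its 2498 UMIs. Neither light chain was found in 14 cells (3.84%).

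**Figure D3:**
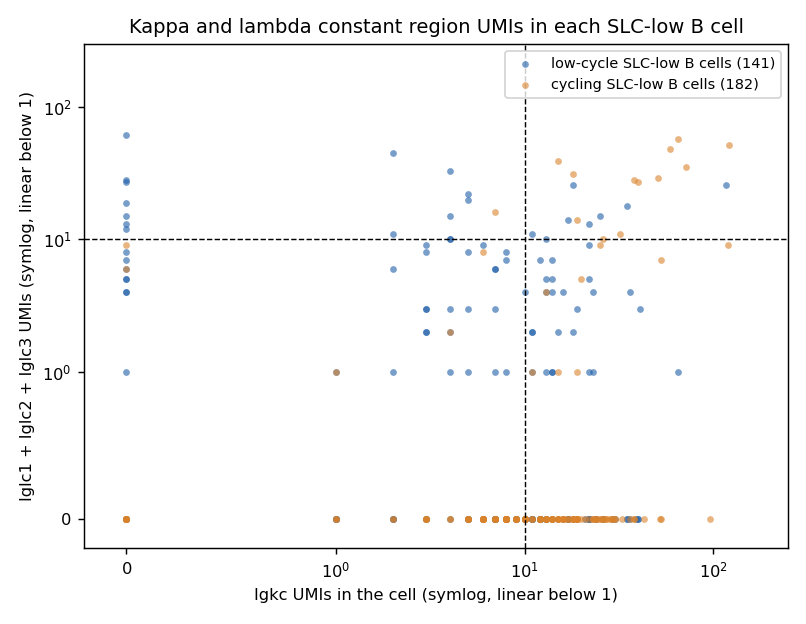
Each point is 1 of the 323 SLC-low B cells left without the mixed barcodes, with Igkc UMIs on the x axis and the summed UMIs of Iglc1, Iglc2 and Iglc3 on the y axis (both symlog, linear below 1) and dashed lines at 10. Low-cycle cells make up most of the points at 0 on the x axis with lambda UMIs, and most cycling cells lie at 0 on the y axis.

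Variable gene tags were sparse, since 3' tags lie in the constant region. In SLC-low B cells 54 UMIs of kappa variable genes were counted in 47 cells over 13 of 160 genes, with 5 lambda variable UMIs in 5 cells and 16 heavy chain variable UMIs in 14 cells. Igkv1-35 led with 17 UMIs in 16 cells, and SLC-high B cells had 15 of its UMIs in 13 cells. Igkv19-93 followed with 12 UMIs in 9 cells against 10 in 10, and Igkv1-135 with 7 UMIs in 6 cells against 1 in 1. These counts are too few to describe a repertoire.

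Across all genes, 3424 had at least 50 CPM in either group and 100 UMIs over both, and 163 of them (4.76%) were at least 2-fold higher in SLC-low than in SLC-high B cells and 30 (0.876%) at least 2-fold lower, on the scale of log2 CPM with 10 CPM added. Without the mixed barcodes, 5.19% of 3465 genes were higher and 1.15% lower. The balance changed with the cells kept. Without cells with 2 or more G2 and M phase UMIs, 67 genes were higher and 55 lower. In low-cycle cells without the mixed barcodes, 70 were higher and 86 lower. The first of these settings drops 234 of 365 SLC-low and 440 of 515 SLC-high B cells, and the cause of the change was not tested. The rule used the SLC-low against SLC-high contrast, so the counts are a description and nothing is read from their size. The median over all genes was 0.01 on the log2 scale.

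Surrogate light chain genes fell below the limit by the rule's own construction. Vpreb1 was at 57.7 CPM against 1095 CPM, and Igll1 at 60.9 against 779 CPM. Vpreb2, a close copy of Vpreb1 that the rule did not name and whose reads may be split with it, was at 8.65 against 169 CPM. Vpreb3, which is not part of the surrogate light chain and aids transport of immunoglobulin chains, was at 1114 against 1483 CPM. Of the 5 recombination and end-joining genes tested, Dntt was the member called, at 5.88 against 88.2 CPM (fell by 2.63 on the log2 scale). Over all genes tested 0.876% were called lower. Rag1 stayed within the limit at 189 against 241 CPM. Rag2, at 44.6 against 44.7 CPM, was below the 50 CPM needed for testing.

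Transcription factors of the B lineage were called in both directions. Of 25 tested, 6 were higher, 1 was lower and 18 were within the limit, with a median of 0.40 on the log2 scale. Over all 3424 genes tested, 4.76% were higher and 0.876% lower, with a median of 0.01. Ikzf3 (Aiolos), which follows the pre-B receptor and restrains division, was at 87.5 against 20.8 CPM, and Spib, an Ets factor of maturing B cells, at 226 against 71.9 CPM. Klf2, a factor of resting lymphocytes, was at 126 against 33.3 CPM. Id2, an inhibitor of E proteins, Myc, a growth regulator, and Relb, an NF-kappaB subunit, were also higher. Lef1, a factor of pro-B cells, was the gene called lower, at 74.0 against 252 CPM. Ebf1 was at 1312 against 1566 CPM and Pax5 at 175 against 196 CPM. Without the mixed barcodes Pou2f2 and Rel were called higher and Tcf4 lower as well, for 8 higher and 2 lower.

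Surface markers of stage showed 7 of 15 tested genes higher and none lower, with a median of 0.71. Over all genes tested 4.76% were higher and 0.876% lower, with a median of 0.01. Ms4a1, which encodes CD20, was at 232 against 15.7 CPM (14.8-fold, and 17.2-fold without mixed barcodes). Ly6d was at 444 against 41.9 CPM, and Cd2 at 69.5 against 3.29 CPM. Tnfrsf13c, the receptor for the survival factor BAFF, was at 302 against 98.2 CPM, and the co-stimulatory receptor Cd40 at 53.9 against 10.0 CPM. Cd72 and Cd9 completed the 7, and Cd9 turned to a log2 ratio of -0.19 in low-cycle cells alone. Il7r, part of the receptor for the growth factor of early B cells, was at 244 against 157 CPM, and Il2ra, the CD25 marker of small pre-B cells, was at 17.98 against 2.39 CPM, below the 50 CPM needed for testing. Markers of mature follicular B cells were scarce: Fcer2a (CD23) had 13 UMIs and Cr2 (CD21) 8 UMIs over all 365 cells.

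Of 10 MHC class II genes listed 4 could be tested, and all 4 were called higher, with a median of 2.09. The share called higher over all genes tested was 4.76%. Cd74, the invariant chain that escorts class II molecules, was at 1064 against 82.4 CPM (12.9-fold, 11.8 to 14.2), and the class II chains H2-Aa, H2-Eb1 and H2-Ab1 were at 215 against 39.5, 159 against 32.4 and 236 against 95.2 CPM. Without cells that had 2 or more G2 and M phase UMIs, these 3 chains turned to log2 ratios of -0.38, -0.74 and -0.32. In the 96 low-cycle SLC-high B cells 141 of the 144 H2-Aa UMIs were in 1 cell, whose part in this turn was not tested. Only 8 of these 96 cells had a Cd74 UMI, and 2 of them held 96.4% of its UMIs. In the 141 low-cycle SLC-low B cells Cd74 was found in 104, and 67 had 20 or more of its UMIs per 10000.

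Receptor signalling, homing and survival genes were taken next. Over all genes tested, 4.76% were called higher and 0.876% lower, and 5.19% and 1.15% without the mixed barcodes. Of 15 signalling genes tested 3 were higher, Blk, a Src family kinase, at 133 against 53.8 CPM, the NF-kappaB inhibitor Nfkbia at 589 against 252 CPM and the adaptor Dok3 at 245 against 95.1 CPM, and the other 12 stayed within the limit. Without the mixed barcodes the kinase Lyn was called as well, at 239 against 101 CPM. Ccr7, which guides lymphocytes to lymphoid organs, was the gene called among 5 homing receptors, at 102 against 17.3 CPM. The marrow retention receptor Cxcr4 was at 390 against 261 CPM. Of 6 survival and death genes 3 were higher: Bcl2a1b at 118 against 14.2 CPM, Bcl2a1d at 54.3 against 7.92 CPM and the kinase Pim1 at 617 against 241 CPM. Bcl2a1b was read in 45 of 365 SLC-low and 22 of 515 SLC-high B cells, so few cells carried its level, and 29.0% of neutrophils had it. The Bcl2a1 genes are near copies whose reads may be shared. None of 19 S phase or 19 G2 and M phase genes passed the limit in either direction, with medians of -0.16 and -0.03, and Btg1, an inhibitor of division, was the gene called among 10 genes of cell cycle exit, at 1129 against 397 CPM. Of the 3 fetal B lineage genes tested none was called, while without the mixed barcodes Arid3a was called higher at 82.6 against 33.2 CPM. Lin28b, the regulator of fetal lymphopoiesis, had 6 UMIs in the members and 21 in the SLC-high cells. Among the 3 activated and plasma cell genes tested Nr4a1, which receptor signalling induces, was higher at 101 against 36.5 CPM, and without the mixed barcodes Egr3, a gene of the same kind, was called too, for 2 of 4. Jchain, a plasma cell gene, had no UMI.

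**Figure D4:**
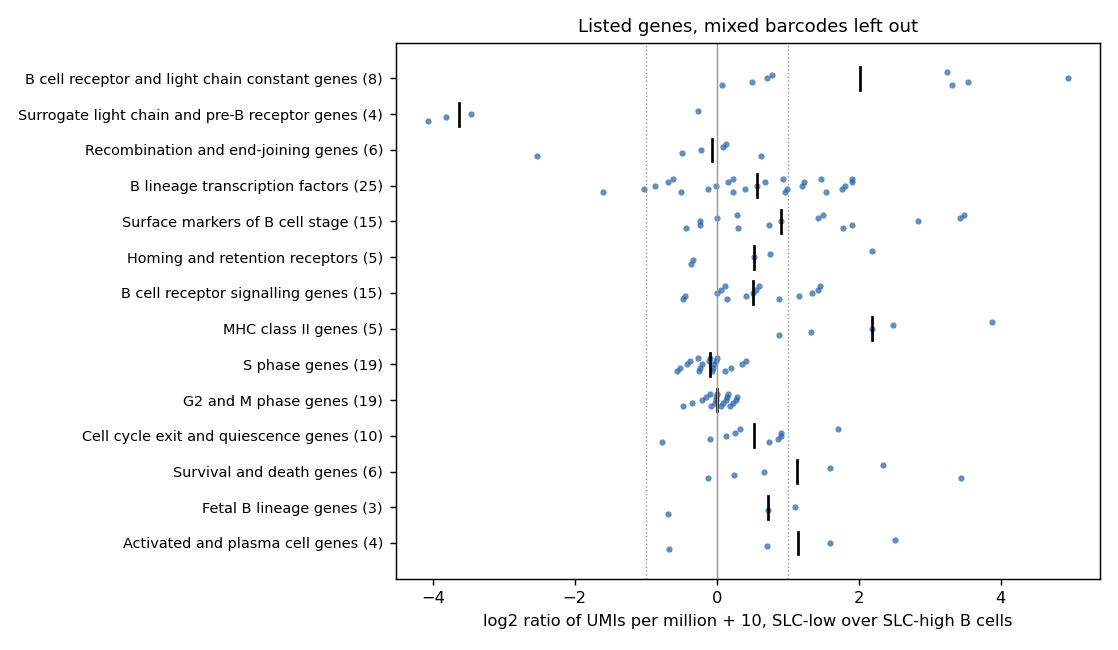
Each point is 1 tested gene of a fixed list, placed by its log2 ratio of CPM with 10 added, SLC-low over SLC-high B cells without mixed barcodes, and black bars are list medians with the number of genes tested in parentheses. Dotted lines mark 2-fold, and the surrogate light chain list lies left of them except for Vpreb3, while the S phase and G2 and M phase genes lie between them.

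The genes with the largest ratios were in part not B lineage genes. Among the 12 highest, the granule enzymes Prtn3, Elane, Ctsg and Mpo of early neutrophils were at 310, 191, 161 and 276 CPM, and 6, 6, 5 and 7 members had 20 or more of their UMIs per 10000. Col10a1, the collagen of hypertrophic chondrocytes, had 1149 UMIs in the members, of which 782 (68.1%) were in 1 cell. Leaving that cell out brought its level to 129 CPM. Of the 1225 UMIs of Fn1, 691 were in 1 cell. In the other direction, beside the surrogate light chain genes, Dntt and Lef1, were Crip1 at 447 against 1465 CPM, Bfsp2 at 78.8 against 302 CPM and Impdh1 at 25.6 against 116 CPM.

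The low-cycle and cycling ranges of the SLC-low B cells differed in much more than cycle genes. Of 3407 genes tested without the mixed barcodes, 5.25% were at least 2-fold higher in the 141 low-cycle cells and 10.9% at least 2-fold lower. All 18 S phase and 19 G2 and M phase genes tested were lower, which the split itself made. A shallow cell passes the demand for 5 Cd79a UMIs only with a high share of Cd79a, so Cd79a is not read between the ranges (2381 CPM against 1062 CPM).

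Beside Cd79a, the 7 other B cell receptor and light chain constant genes were higher in the low-cycle range. So were 7 of 15 surface markers, with 1 (Cd24a) lower, and 3 of 5 MHC class II genes. Over all genes tested 5.25% were higher and 10.9% lower. Some RNA of other lineages was higher there too, with Col2a1 at 1406 against 634 CPM and Hbb-bs at 829 against 424 CPM. Elane and Mpo were called lower. The part of RNA of other lineages in these differences was not tested. Ighm was at 5890 CPM against 2827 CPM (2.08-fold, 1.99 to 2.18), Igkc at 3867 against 1760 CPM and Iglc1 at 913 against 164 CPM. Ms4a1 was at 977 against 107 CPM, which is 9.09-fold (7.64 to 10.9), and at 2000 UMIs per cell it was found in 49.6% of low-cycle and 12.2% of cycling cells (50.4% and 16.5% before thinning). Ly6d was found in 77.5% against 30.6% (81.6% and 46.2% before thinning) and Cd74 in 71.3% against 42.8% (73.8% and 61.5%). H2-Aa, called higher by level, had a UMI in 44 of 141 low-cycle and 74 of 182 cycling cells before thinning. For Igkc the shares were close, 87.6% and 87.2% (87.9% and 94.5% before thinning), while its level in CPM was higher in the low-cycle range. Spib (478 against 229 CPM), Ikzf3 (203 against 76.4 CPM) and Foxo1 (261 against 115 CPM), which drives Rag expression, were among the 6 of 25 transcription factors called higher, and none was lower. S1pr1, the receptor for exit to the blood, was at 130 against 29.4 CPM, and Tnfrsf13c at 772 against 264 CPM.

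Of 5 recombination and end-joining genes, Rag1 was called higher in the low-cycle range and Hmgb1 and Hmgb2 lower. Over all genes tested 5.25% were higher there and 10.9% lower. Rag1 was at 506 CPM in low-cycle and 141 CPM in cycling cells (3.59-fold, 2.98 to 4.32), and at equal depth it was found in 50 of 129 against 45 of 180 cells (43.3% and 49.5% before thinning). Rag2 was at 31.0 against 57.6 CPM, within the limit. Il7r was at 159 against 314 CPM, just within the limit, and found in 24.0% against 43.9% of cells (27.7% and 74.7% before thinning). Cd24a, a surface protein of early B cells, was at 349 against 1004 CPM, and Hmgb2, a chromatin protein listed as a recombination cofactor, at 279 against 4368 CPM. Vpreb3 was alike at 1307 and 1311 CPM.

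The same ranges were set out for SLC-high B cells. Rag1 was at 477 CPM in low-cycle and 237 CPM in cycling SLC-high cells, the same direction as in SLC-low cells. Ms4a1 and Ly6d stayed under 50 CPM in both SLC-high ranges. Igkc was at 248 and 210 CPM there. Dntt was at 250 and 81.6 CPM in the low-cycle and cycling SLC-high cells. Vpreb1 and Igll1 are not read between the ranges, since the rule limits them in both groups.

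**Figure D5:**
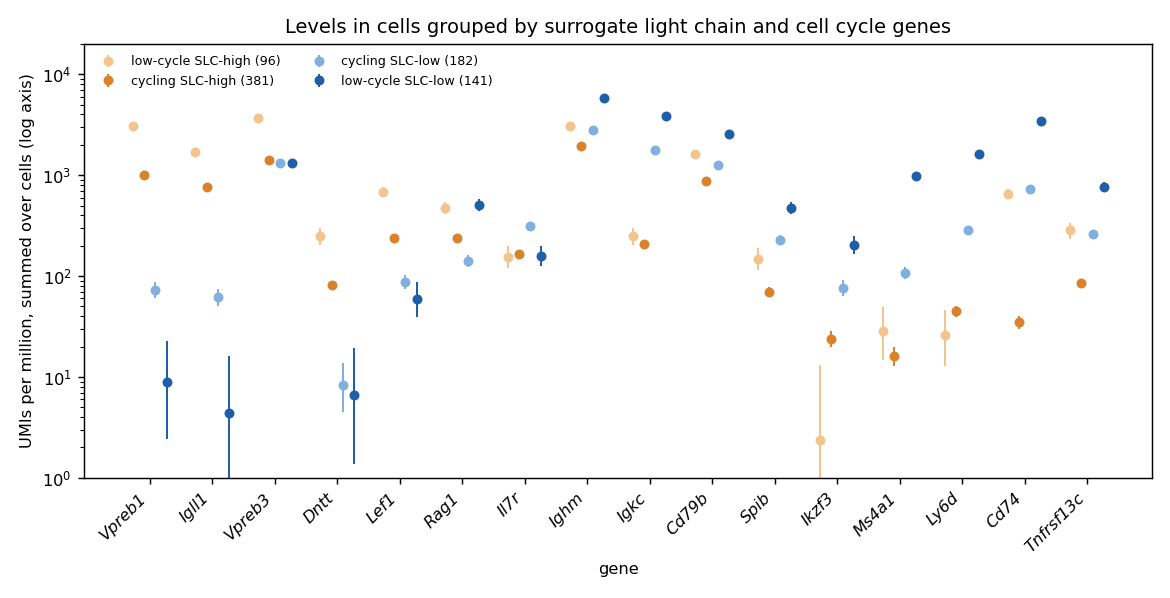
Points are UMIs per 1000000 (CPM) summed over the cells of each group, on a log axis, with exact Poisson 95% intervals as bars, for low-cycle and cycling SLC-high and SLC-low B cells without mixed barcodes. Ms4a1, Ly6d and Cd74 are highest in the 141 low-cycle SLC-low B cells, and Dntt and Lef1 in the 96 low-cycle SLC-high B cells.

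SLC-low B cells were also divided by kappa RNA into 42 kappa-low cells (Igkc under 2 UMIs per 10000), 153 in the middle band and 170 kappa-high cells (20 or more). Of 2499 genes tested, 10.9% were at least 2-fold higher in kappa-high than in kappa-low cells and 6.64% at least 2-fold lower. Without the mixed barcodes these were 10.7% and 5.16% of 2017 genes. Beside Igkc itself, which made the bands, Ighm went from 1306 CPM in kappa-low through 2491 CPM to 4823 CPM in kappa-high cells. Cd74 went from 210 through 671 to 2359 CPM and Spib from 27.6 through 195 to 428 CPM. These levels include the mixed barcodes, which were 10 of the 42, 27 of the 153 and 5 of the 170 cells. The bands had median depths of 9468, 7001 and 3647.5 UMIs, and the part of depth in these levels was not tested. All 4 MHC class II genes tested, 14 of 25 transcription factors, 11 of 14 surface markers and 8 of 13 receptor signalling genes were called higher in kappa-high cells, and of these lists the tetraspanin Cd9 alone was called lower. Without cells with 2 or more G2 and M phase UMIs, calls over all genes dropped to 25 higher and 6 lower, 24 of 80 listed genes stayed 2-fold, 58 kept their sign, and Ighm turned to a log2 ratio of -0.14, Ly6d to -0.76 and Cd2 to -1.20. Irf4 and Irf8, factors that act in light chain rearrangement, were at 490 against 73.6 CPM and 327 against 65.9 CPM.

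Kappa-low cells were not of 1 kind. Of 32 left without the mixed barcodes, 16 had 3 or more lambda UMIs and 15 had none. The 16 lambda-bearing cells had a median of 2165 UMIs, 2 of them were cycling, and they held 693 CPM of Ms4a1, 1607 CPM of Cd74, 4916 CPM of Ighm and no Dntt UMI. The 15 cells without lambda UMIs, of which 5 had an Igkc UMI, had a median of 13741 UMIs, 12 were cycling, and they held 3.04 CPM of Ms4a1, 39.5 CPM of Cd74, 897 CPM of Ighm and 45.6 CPM of Dntt. They include the cell with 782 Col10a1 UMIs, and the 14 others held no Ms4a1 UMI, 47.2 CPM of Cd74, 1016 CPM of Ighm and 54.4 CPM of Dntt. Summed over the kappa-low band, the deeper cells of the second kind weigh most. Several genes called lower in kappa-high cells came from mixed barcodes: without these, the log2 ratio of Camp, a neutrophil granule gene with 1094 of its 1356 UMIs in 1 cell, turned to 0.60 and that of Hbb-bs to 0.14.

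The bands were also compared within each cycle range. Among the 141 low-cycle cells Ighm was at 5325, 5673 and 6109 CPM in kappa-low (18 cells), middle (34) and kappa-high cells (89), with counting intervals of 4780 to 5915, 5236 to 6138 and 5821 to 6406 that overlap. Cd74 was at 1637, 2315 and 4347 CPM, and Spib at 107, 403 and 594 CPM. Rag1 went the other way, from 1025 CPM through 705 to 306 CPM, and was found in 14 of the 18, 22 of the 34 and 25 of the 89 cells. Ly6d had no order, with 2601, 1007 and 1610 CPM. Among the 182 cycling cells Ighm was at 894, 2704 and 4224 CPM and Cd74 at 42.6, 538 and 1475 CPM. Rag1 was at 170, 101 and 187 CPM and showed no order. These cycling bands held 14, 92 and 76 cells, at median depths of 21159.5, 7944 and 6113.5 UMIs. The 14 kappa-low cells held 1012 Col10a1 UMIs, all in 2 of them. The part of depth and of cartilage RNA in the order of Ighm and Cd74 was not tested.

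Light chain class was compared among 129 low-cycle cells thinned to 2000 UMIs, with 3 UMIs as the limit for either chain. There were 67 cells with kappa alone, 15 with lambda alone, 30 with both and 17 with neither, at median depths before thinning of 2704, 2217, 2553 and 3597 UMIs. Of 180 cycling cells treated in this way, 100 had kappa alone, 2 lambda alone, 8 both and 70 neither. Lambda RNA at this limit was thus in 34.9% of low-cycle and 5.56% of cycling cells, and kappa RNA in 75.2% and 60.0%.

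Among low-cycle cells, the genes named here for lambda alone against kappa alone were chosen after their values were seen. Rag1 was at 966 CPM (95% counting interval 693 to 1311) with lambda alone and 361 CPM (285 to 451) with kappa alone, and was found in 10 of 15 and 17 of 67 thinned cells. Irf4 was at 94.2 CPM against 539 CPM, in 1 of 15 against 38 of 67 cells. Cd72, a receptor that dampens B cell signals, was at 118 against 591 CPM, in 2 of 15 against 42 of 67 cells, and Spib at 212 against 623 CPM. Cells with both chains lay with the kappa cells for Irf4 (561 CPM) and Rag1 (367 CPM). The order of other stage markers was mixed. Ms4a1 was found in 7 of 15 cells with lambda alone and 36 of 67 with kappa alone, and Cd74 in 11 of 15 and 51 of 67. Tnfrsf13c was found in 8 of 15 and 51 of 67, Cd40 and H2-Aa each in 3 of 15 against 19 and 22 of 67, and Cd2 in 9 of 15 and 21 of 67. Ly6d stood highest with lambda alone, at 3534 against 1420 CPM. Cells with neither chain had 756 CPM of Rag1, 2713 CPM of Ighm and 310 CPM of Ms4a1. The 15 lambda cells hold few UMIs of each gene, 4 for Irf4 and 41 for Rag1, and all come from 1 mouse.

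The members near the limits of the rule were examined last. At the Cd79a limit, 73 members had exactly 5 UMIs and a median of 18.7 Igkc UMIs per 10000, and 90 barcodes just outside with 4 Cd79a UMIs had 23.0, at median depths of 4874 and 2947 UMIs. Of those outside, 77 carried Igkc and 88 Vpreb3. At the surrogate light chain limit, 14 members between 4 and 5 per 10000 had a median of 5.34 Igkc UMIs per 10000, and 18 cells between 5 and 6 had 9.21. The limit of 1000 genes left 4 barcodes outside and kept 16 with fewer than 1100.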

How the data were processed

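The P6 library was deposited as a gene matrix of UMI counts per barcode, without normalization, which the authors made with Cell Ranger v3.1.0 and a reference of mm10 extended by tdTomato and WPRE. Its 4 sequencing entries were deposited as 1 matrix with no map from barcodes to entries, and were treated as 1 library. Seurat 3 is also named in the submitters' processing notes. The annotation release was not given in the sources used here. A second deposited count matrix holds 98 exogenous sequences. The gene matrix has 158281984 UMIs in 14181 barcodes (median 8235, range 500 to 85279), and this depth sets the counting intervals. P56 cells were not analysed here.

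The members, gene lists and limits were chosen with earlier results of these data known. UMIs were summed over cells and scaled to 1000000 (CPM), given exact 95% Poisson bounds, and shares were given Clopper-Pearson bounds. PCR copies are collapsed by UMI, and intervals cover counting error only. For a count of 0, a limit of 3 counts was used. Folds are plain ratios of CPM, with intervals conditional on the summed UMIs. Called means at least 2-fold with 10 CPM added, for genes that reached 50 CPM in 1 of the groups and 100 UMIs over both. No p-value was computed, as there is 1 library. Named genes are those of 24 lists described by list and the 12 with the largest ratio each way, and the 8 leading variable genes, and light chain classes were chosen after their values were seen. Chondrocytes for background had at least 50 Col2a1 UMIs per 10000. Thinning drew 2000 UMIs per cell with seed 1. Doublets marked by Scrublet (expected rate 10%) were kept in the main values, 588 of all barcodes, and left out in an alternative. No barcode was repeated. Coordinates are from GENCODE M21 (30934 of 31053 identifiers matched), and promoters from RefSeq on GRCm38.p6. The calling of genes by fold was tested on simulated Poisson counts with known folds. Python 3.11.15, numpy 2.4.6, scipy 1.17.1, pandas 2.3.3, scanpy 1.11.5, Biopython 1.88 and matplotlib 3.10.9 were used.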

Additional observations from a re-analysis of the deposited data

Results flagged for a closer look

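Exogenous sequences lie outside the gene matrix and were counted for SLC-low B cells as well. WPRE, the element at the end of the reporter transcript, had 228 UMIs in 59 of 365 cells (16.2%), with 3 cells above 14 UMIs and 55 in the highest. In SLC-high B cells it had 114 UMIs in 89 of 515 cells (17.3%), and 24.2% of chondrocytes and 14.4% of neutrophils had a WPRE UMI. Without the mixed barcodes it had 149 UMIs in 44 of 323 cells. The tdTomato sequence itself had 4 UMIs in 3 of the 365 cells (0.822%), against 84 UMIs in 60 chondrocytes. The WPRE share drew notice only because it is above the 0.822% that a count of 0 allows. In SLC-high B cells the highest cell had 10 WPRE UMIs and 0 were above 14, and in the members without mixed barcodes 2 were. Where the WPRE UMIs of the members came from was not tested. The 4 tdTomato UMIs are just over the 3 counts of that limit and the share of cells equals it.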

How the results depend on the processing

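No paired analysis was possible because there is 1 library in 1 group, and leaving out replicates in turn was not possible for the same reason. The 365 members became 238 with at least 1600 genes, 91 with at most 5% mitochondrial UMIs, 554 with at least 3 and 104 with at least 10 Cd79a UMIs, 309 with the surrogate light chain under 2 per 10000, 195 with both collagens under 10 per 10000, and 323 without mixed barcodes. Genes called against SLC-high B cells (163 higher, 30 lower) became 62 and 15 with 50 CPM added, 273 and 54 with a filter of 10 UMIs only, 67 and 55 without cells with 2 or more G2 and M phase UMIs, and 70 and 86 in low-cycle cells without mixed barcodes. The lower count became 49 with the surrogate light chain under 2 per 10000 and 67 with means over cells. Genes called between kappa-high and kappa-low cells (272 higher, 166 lower) became 125 and 108 with at most 5% mitochondrial UMIs, 94 and 67 with at least 10 Cd79a UMIs, 112 and 19 with the surrogate light chain under 2 per 10000, 162 and 94 with collagens under 10 per 10000, 156 and 109 with 50 CPM added, 635 and 768 with a filter of 10 UMIs only, 139 and 106 with means over cells, and 25 and 6 without cells with 2 or more G2 and M phase UMIs. The lower count became 104 without mixed barcodes, and the higher count 101 with kappa limits of 1 and 50 and 179 with members ranked by Igkc and split into 3 equal parts. The causes were not tested beyond the smaller numbers of cells or genes that each setting leaves. Mixed barcodes, the cycle limit and light chain classes were chosen after seeing the data.

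Of 4305 other values, 2747 stayed within counting error, 1507 moved with the same sign and 51 changed sign, given here as log2 ratios. Against SLC-high B cells, H2-Eb1 became -0.045 with at most 5% mitochondrial UMIs, and Prtn3 -0.60, H2-Aa -0.38, H2-Ab1 -0.32 and H2-Eb1 -0.74 without cells with 2 or more G2 and M phase UMIs. Cd9 became -0.19 in low-cycle cells alone. The 47 listed genes called against SLC-high B cells kept their sign in 43 to 47 cases and stayed at least 2-fold in 33 to 47. Of the 80 listed genes called between kappa-high and kappa-low cells, 58 to 80 kept their sign and 24 to 80 stayed 2-fold, both fewest without cells with 2 or more G2 and M phase UMIs. Between kappa-high and kappa-low cells, Bcl2a1d became -0.016 with at most 5% mitochondrial UMIs, and Camp 1.36 and Ctsg 0.54 with at least 10 Cd79a UMIs. With the surrogate light chain under 2 per 10000, Camp became 0.61, Col10a1 0.57, Elane 0.72, Fn1 0.051, Ighd -0.081 and Igll1 0.061. With collagens under 10 per 10000, Col10a1 became 1.23. Without mixed barcodes, Camp became 0.60, Hbb-bt 0.33, Elane 0.31 and Hbb-bs 0.14. With means over cells, Ighd became -0.37, Iglc2 -0.18, Myc -0.031, Ly6d -0.45, Cd2 -0.55 and Pik3cd -0.12. With kappa limits of 1 and 50, Hbb-bt became 0.81 and Hbb-bs 0.76, and by 3 equal parts Cdkn2d became -0.076. Without cells with 2 or more G2 and M phase UMIs, Prtn3 and Ctsg became 1.58, Igll1 1.76, Elane 0.84, Fn1 0.45, Hbb-bt 0.13 and Cdc20 0.00. In that setting Ighm became -0.14, Ighd -1.06, Iglc2 -1.20, Cd2 -1.20, Ebf1 -0.035, Pou2af1 -0.65, Myc -0.27, Ly6d -0.76, Cd69 -0.32, Syk -0.49, Pik3cd -0.73, Cenpa -0.46, Ccng2 -0.30, Pim1 -0.41 and H19 -0.048. Depth limits cells with fewer than 2000 UMIs and genes with few UMIs.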

Other observations

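The genes altered in this mouse were scarcely read in SLC-low B cells. Irx3 had 15 UMIs in 11 of 365 cells and Irx5 had 13 UMIs in 7, against 443 and 769 UMIs in 2215 chondrocytes. CRE and EGFP had no UMI in the members, which allows a share of up to 0.822% each.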
